A study of Homo sapiens with 2 samples.

Results

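The 3000 catalogue probes that the array carries in 10 copies were examined for their response to FOXA1 silencing. They were chosen by design and not by signal: each has a name beginning with A_, is no control, and occupied exactly 10 spots on both arrays. They are 3000 of the 138405 probes that are not controls and take up 30000 of the 175899 such spots on an array. All are 60 bases long. Another 34549 catalogue probes were printed once, and 1166 probes of a custom series were also printed 10 times. The copies allow the change of each probe to be set against the spread between its own spots.

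RNA came from HepG2, a human liver cancer cell line, and was labelled with Cy3 for 1-colour Agilent arrays. One array held cells given a scrambled control siRNA (NC) and the other held cells given siRNAs against FOXA1 (siFOXA1), both taken 48 h after transfection. The siRNAs against FOXA1 were given as a mixture, so what belongs to any single siRNA cannot be told apart. Both arrays lay on 1 slide. With 1 array per condition no difference between the conditions could be tested, and the number of arrays limits the precision. Spots share the culture, the RNA and the array, so an error over spots covers spot noise only and leaves out the spread between cultures.

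FOXA1 is a forkhead transcription factor that binds its sites in closed chromatin and opens them for other factors. In the liver it acts with FOXA2 and the hepatocyte nuclear factors on genes of metabolism and of secreted proteins. An siRNA directs cleavage of the messenger RNA it matches. An array probe reports the RNA that pairs with it, and RNAs that share a stretch with the probe add to its signal. The files give no gene for these probes, so they are described by probe name, by sequence and, where one was found, by genomic position.

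Of the 3000 probes, 22 lay in the RefSeq promoter windows of GRCh38.p14, which run from 250 bases before a gene's annotated start to 50 bases after it. Of these, 16 matched over all 60 bases and 6 in part, 10 on the gene's strand and 12 on the opposite one. Strands here are those of the probe sequence as listed, and which strand of the RNA the label reports was not checked. Several are printed here because they are the probes whose place in the genome is known. The first of them is the only one of the 15 detected on both arrays that passed 1.4-fold. Over all catalogue probes printed 10 times and detected on both arrays, 18.5% passed it in either direction, as did 18.5% of all probes. Capitals mark bases at or past the annotated start, and lower case marks bases before it.
A_22_P00022486: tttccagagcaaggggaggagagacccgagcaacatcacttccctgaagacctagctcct
A_22_P00005575: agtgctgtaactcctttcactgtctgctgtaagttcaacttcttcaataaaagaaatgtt
A_21_P0002619: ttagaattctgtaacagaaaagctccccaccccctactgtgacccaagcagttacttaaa
A_19_P00812033: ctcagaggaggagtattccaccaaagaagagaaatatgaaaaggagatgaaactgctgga
A_19_P00315863: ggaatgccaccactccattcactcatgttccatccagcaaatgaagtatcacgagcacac
A_33_P3410821: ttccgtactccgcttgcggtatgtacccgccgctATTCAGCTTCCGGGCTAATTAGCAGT

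Signals are given below as a level relative to the array, with 100 at the 75th percentile of the processed signal of all spots that are not controls. A_22_P00022486 lies at chr10:73247428-73247487, upstream of DNAJC9, a J-domain co-chaperone of histones, and on its strand. The same bases fall within the extent of the non-coding gene DNAJC9-AS1, which is annotated on the other strand. Its spots ran from 35.5 to 46.1 with a median of 41.4 on NC and from 25.3 to 34.4 with a median of 29.6 on siFOXA1. The arrays did not overlap, and the mean was lower on siFOXA1 by 1.401-fold (log2 −0.49 ± 0.06, SE over 10 spots per array), which is the call nearest to the threshold. With the normexp background correction, which here adds an offset of 50 to each corrected spot signal, its log2 difference was −0.13 and no longer passed.

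A_22_P00005575, at chr20:32858682-32858741, lies upstream of EFCAB8 and within the extent of the non-coding gene LOC119746555. Its level was 43.6 on NC and 50.5 on siFOXA1, a 1.16-fold difference with no overlap between the spots of the arrays. A_21_P0002619, at chr2:170770294-170770353, lies between 84 and 25 bases before the start of ERICH2 and within the extent of ERICH2-DT. It was the brightest probe of the 22, with levels of 20844 on NC and 19422 on siFOXA1, and its spots overlapped. A_19_P00812033, at chr5:163709373-163709432, matched the strand opposite to LOC102724458. It was well above background on siFOXA1 alone, where its level was 14.8, and only a bound of at least 1.605-fold higher could be given. A_19_P00315863, at chr2:215843648-215843707, lies upstream of the non-coding gene LINC00607 and had levels of 65.2 and 63.2. A_33_P3410821, at chr15:34583626-34583685, spans the annotated start of GOLGA8B, a member of the golgin family, and had levels of 593 and 600.3. For both of these the difference was smaller than its SE over spots.

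A probe was called detected where at least 50% of its kept spots were well above background. That held for 2050 probes on NC (68.3%) and 2048 on siFOXA1 (68.3%). Both arrays detected 2005 probes, NC alone 45, siFOXA1 alone 43 and neither 907. Among catalogue probes printed once, 67.4% were detected on NC and 66.7% on siFOXA1. For the custom probes printed 10 times these shares were 50.3% and 48.2%. The median level was 41.9 on NC and 43.2 on siFOXA1. No spot was saturated.

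The spots of a probe lay close together. Across the 2005 probes detected on both arrays, the median SD between spots was 0.0897 on NC and 0.0991 on siFOXA1 on the log2 scale. As a coefficient of variation this was 6.23% and 6.87%, while the error that the scanner software itself gives for these spots was 10.1% on both arrays. The 907 probes detected on neither array had wider spots, with median SDs of 0.311 and 0.339. Of the 2005, A_21_P0011359 had the tightest spots, between 716 and 750 on NC (median 733) and between 901 and 951 on siFOXA1 (median 917). A_21_P0003057 had the widest of the 2005, between 17.3 and 43.7 on NC (median 33.9) and between 4.03 and 39.7 on siFOXA1 (median 29.7), so its 2 arrays overlapped broadly.

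A mean over the copies was accordingly precise against spot noise. For the 2005 probes the SE of the log2 difference between the arrays had a median of 0.0448, exceeded 0.1 for 310 probes and reached 0.33 for A_21_P0003057. It fell with signal. With the probes ranked by signal in 5 sets of 401, its median from the dimmest set to the brightest was 0.116, 0.0643, 0.0433, 0.0313 and 0.0252. Spots at the same position on both arrays deviated together, with a correlation of 0.24 over 18834 spots of 2005 probes on the 1 slide, and pairing spots by position brought the median SE to 0.0372.

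The differences between the arrays were wider than this spot noise. Their SD across the 2005 probes was 0.467 on the log2 scale, against a root mean square SE of 0.0732. The median difference, siFOXA1 minus NC, was −0.02, and the middle 50% of probes lay between −0.21 and 0.16.

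With the 1.4-fold threshold used in the study, 181 probes were lower on siFOXA1 and 189 were higher. These counts are relative to the scaling. They became 368 and 118 without scaling, 1602 and 39 with scaling on spike-in probes, and 100 and 91 with the normexp background correction. The share lower was 9.03%, and over all 66169 probes detected on both arrays it was 9.15%. The share higher was 9.43%, and over all probes 9.38%. These shares lie close together, but most of the 66169 probes are read from 1 spot, so they are not like for like. Single pairs of spots of the 2005 probes gave 11.6% lower and 11.8% higher. For the custom probes printed 10 times, likewise averaged over spots, the shares were 8.63% lower and 7.37% higher. Past 2-fold there were 35 lower and 59 higher, together 4.69%, against 3.64% of all probes, 5.19% of catalogue probes printed once and 3.6% of the custom probes printed 10 times. Past 4-fold there were 4 lower (0.2%) and 8 higher (0.399%), against 0.177% and 0.329% of all probes.

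The arrays were called apart for a probe where every kept spot of one array lay above every kept spot of the other. This held for 166 of the 181 lower probes and 170 of the 189 higher ones, which are 8.28% and 8.48% of the 2005. Over the 2561 detected probes of any kind printed 10 times the shares were 8.08% and 8%, and over the custom probes among them 7.37% and 6.29%. All 94 probes past 2-fold were apart. The 34 probes past 1.4-fold whose spots overlapped were dim, with a median level of 21.3 on NC against 136 for those apart. The largest difference among them was 1.96-fold for A_23_P83347, whose spots ran from 9.21 to 23.4 on NC (median 14.6) and from 21.6 to 37.5 on siFOXA1 (median 29.4).

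A further 357 probes were apart without reaching 1.4-fold, which brought the total apart to 693 (34.6%), of which 385 were lower (19.2%) and 308 higher (15.4%). Over all detected probes printed 10 times the shares apart were 18.5% lower and 14.3% higher, and over the custom probes among them 15.8% and 10.3%. The smallest such difference was 1.07-fold for A_33_P3418611, whose spots ran from 1794 to 1893 on NC and from 1663 to 1775 on siFOXA1. Separation of the arrays went with signal. In the dimmest set 32 probes passed 1.4-fold lower and 31 higher, of which 18 and 14 were apart, while in the brightest set all 36 and 28 were.

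The copies also show what 1 spot per array would have given. Over 187411 pairs of 1 NC spot and 1 siFOXA1 spot, 10.3% gave another call than the mean over the spots. The share was 16.5% for probes lower by their mean, 12.9% for those higher and 9.37% for those within 1.4-fold. Single pairs called 11.6% lower and 11.8% higher, more than the 9.03% and 9.43% from the means. Among the 22377 detected catalogue probes printed once, 11% were lower and 11.2% higher.

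When the spots were divided by the row of the array, the differences from the upper and the lower rows correlated at 0.95 over 1994 probes of the same 2 arrays. Their median absolute difference was 0.0566. Of 187 probes lower in the upper rows and 184 in the lower rows, 154 were lower in both. Of 204 and 189 that were higher, 166 were higher in both, and 0 probes passed in opposite directions.

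Among probes detected on both arrays, the largest falls were led by A_22_P00013558. Its spots ran from 443 to 538 on NC (median 491) and from 45.8 to 67.1 on siFOXA1 (median 60.3), a difference of 8.27-fold (log2 −3.05 ± 0.06, SE over 10 spots per array). A_22_P00002440 followed, from 14719 to 16664 on NC (median 15440) and from 2228 to 2509 on siFOXA1 (median 2346), a 6.60-fold fall of one of the brighter probes. A_21_P0009662 lay between 2153 and 2451 on NC (median 2254) and between 396 and 458 on siFOXA1 (median 424), or 5.34-fold lower. In each case the lowest NC spot was several times the highest siFOXA1 spot. A_33_P3266550 fell 4.31-fold, from 341 to 79.1. The other named falls were A_23_P23996, A_33_P3294277, A_23_P120902, A_33_P3233645, A_23_P436284 and A_24_P224727, which fell between 3.36-fold and 2.94-fold. Named falls were chosen only among probes whose arrays were apart. With normexp, A_22_P00013558 stood at −2.23, A_22_P00002440 at −2.79 and the dimmest of the 10, A_33_P3294277, at −0.59 in place of −1.74.

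The largest rise among probes detected on both arrays was that of A_21_P0013954, from 16.5 to 29.1 on NC (median 22.3) and from 218 to 245 on siFOXA1 (median 225), a difference of 10.2-fold (log2 3.36 ± 0.10, SE over 10 and 8 spots). A_23_P23924 ran from 163 to 201 on NC (median 181) and from 1013 to 1119 on siFOXA1 (median 1041), 5.85-fold higher. A_23_P139912 rose 5.31-fold and A_23_P143178 5.24-fold, both from levels near the lower end of what was detected on NC, 24.1 and 22.1. With the normexp background correction the log2 differences of A_21_P0013954, A_23_P139912 and A_23_P143178 were 1.897, 1.22 and 1.15, in place of 3.36, 2.41 and 2.39. A_22_P00003769, A_23_P204630, A_23_P47614, A_33_P3619171, A_23_P59261 and A_24_P382187 rose between 5.01-fold and 3.93-fold. With normexp their log2 differences were 1.50, 1.09, 1.29, 0.93, 1.26 and 1.70 in that order. All are past 1.4-fold because named rises were chosen only among probes that pass it under normexp. A_24_P382187 went from 236 to 927, with all spots between 219 and 247 on NC and between 883 and 976 on siFOXA1.

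Probes detected on a single array give bounds only. For a probe below background, the higher of its own level and that of the dimmest spot well above background stood in for its level, which was 9.20 on NC and 10.3 on siFOXA1 for that spot. Of the 43 probes detected on siFOXA1 alone, 20 had a bound of 1.4-fold or more (46.5%), against 58.9% of all probes detected there alone. Of the 45 on NC alone 6 had (13.3%), against 26.9% of all such probes, most of which are read from 1 spot. A_23_P157117 was at least 12.5-fold higher on siFOXA1, where its spots lay between 98.7 and 129 (median 115). A_33_P3232458 was at least 4.47-fold higher on siFOXA1. A_22_P00014056, with spots between 26.0 and 34.3 on NC (median 29.9), was at least 2.87-fold lower on siFOXA1, and A_23_P413180 at least 2.21-fold lower. These bounds depend on the background correction and on the offset of 50 used with normexp. With normexp the log2 differences were 1.41 for A_23_P157117, 0.64 for A_33_P3232458, −0.36 for A_22_P00014056 and −0.16 for A_23_P413180, of which the last 2 are under 1.4-fold.

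The 5 brightest probes on NC moved little. A_33_P3396434 had levels of 460874 and 513193, A_33_P3220149 of 245765 and 270733, A_33_P3285715 of 169676 and 171734, A_33_P3410206 of 169462 and 180399, and A_33_P3388491 of 157799 and 165860. Their log2 differences lay between 0.02 and 0.16 with overlapping spots throughout. Of these, A_33_P3396434, A_33_P3220149 and A_33_P3410206, are the richest in G and C, at 78.3%, 80% and 80%.

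Some of the probes that moved most share a simple sequence. A run in which C and A alternate over at least 8 bases occurs in 12 of the 3000 probes, and a run of alternating T and G in 15. The longest of each kind, together with the runs of the named falls, are given as the run alone.
A_33_P3257513, C and A: acacacacacacacacacaca
A_33_P3266550, C and A: cacacacacac
A_22_P00002440, C and A: cacacacaca
A_21_P0009662, C and A: acacacac
A_33_P3226788, T and G: tgtgtgtgtgtg
A_21_P0011028, T and G: gtgtgtgtgtgt
A_33_P3233953, T and G: gtgtgtgtgtg

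These runs were chosen after the values were seen. Of the 10 probes with a C and A run detected on both arrays, 6 were lower past 1.4-fold, all 6 with the arrays apart, and 0 were higher. Over the 2005 probes the shares were 9.03% lower and 9.43% higher, and over all probes 9.15% and 9.38%. The median log2 difference of the 10 probes was −0.82. They include 3 of the 10 largest falls, A_22_P00002440, A_21_P0009662 and A_33_P3266550. A_33_P3257513, with the longest run, fell 2.19-fold from a level of 41131 to 18804. A_33_P3372910 went the other way, from 3089 to 3956. Of the 12 detected probes with a T and G run, 4 were higher and 1 was lower past 1.4-fold, and their median was 0.26. The 4 were A_33_P3226788 (2.81-fold), A_21_P0011028 (2.41-fold), A_33_P3233953 (2.17-fold) and A_21_P0014915 (1.64-fold), and all were apart. Their runs are 10 to 12 bases long, whereas the one lower probe, A_24_P291401, has 8. A_33_P3369731 also has 10 and its level was 17.1 on NC and 18.9 on siFOXA1, with overlapping spots.

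Catalogue probes printed once, which are not among the 3000, were counted in the same way. Of 88 with a C and A run, 43 were lower and 8 higher, against background shares of 11% and 11.2%. Of 126 with a T and G run, 11 were lower and 50 higher. Probes that hold the same repeat are not independent readings. Without the probes that hold such a run, 174 of 1983 probes printed 10 times were lower and 185 higher.

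Other probes on the arrays share a stretch with one of the 3000 and were read on the same cultures. A shared stretch can also be a repeat or belong to related RNAs, so such probes need not report the same RNA. On the same strand, 159 of the 3000 shared at least 20 consecutive bases with another probe, and for 102 both were detected. With the partner of the longest shared stretch taken for each of the 102, the differences correlated at 0.83, with a median absolute difference of 0.078 on the log2 scale. Of the 18 that passed 1.4-fold, 17 had a partner of the same sign and 10 a partner that passed in the same direction. Other partners of a probe could differ. A_33_P3360216, at −0.96, shares stretches with 4 detected probes, of which A_33_P3404989 was at −1.31, A_33_P3257678 at −1.12, A_33_P3302632 at −0.14 and A_33_P3253214 at 1.103, past 1.4-fold in the opposite direction. A_33_P3287879 fell from 12939 to 5824 and its partner A_23_P30799 from 11045 to 5115. A_24_P358305 rose from 184 to 699.5 and A_24_P82880 from 1119 to 4101. A_33_P3245126, with a difference of −1.12 on the log2 scale, shares 52 bases with a custom probe at −1.13. A_24_P334529 rose by 0.72 while its detected partner A_23_P422044, which shares 24 bases, was at −0.03. A_33_P3395651 shares 32 bases with A_24_P334529 and went from 7.49 to 28.3, but was not detected on both arrays.

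On the opposite strand, 40 probes had a partner and 29 of them were detected together with one. With 1 partner each, the differences showed a correlation of 0.03 across the 29, and of 0.62 across the 8 that share at least 40 bases. Of the 29, 3 passed 1.4-fold, and 0 of these had a partner of the same sign. A_33_P3257513 had partners on both strands through its repeat. It fell by 1.13 on the log2 scale. The 3 on its own strand had differences of −1.42, −1.36 and −1.20, whereas the 8 on the opposite strand had differences of 0.88 to 1.08. A_33_P3360867 pairs over all 60 bases with a catalogue probe on the opposite strand, A_21_P0013330. The former had levels of 1091 and 1027, and the latter 10.72 and 11.8, with neither past 1.4-fold. Levels of different probes depend on how well each one pairs, so these are given side by side without a comparison of strands.

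The names of the catalogue probes begin in several ways. The 789 probes named A_19, A_21 or A_22 were dimmer than the 2211 named A_23, A_24, A_32 or A_33. Both arrays detected 48.3% of the former and 73.5% of the latter. Of the 381 detected in the first set, 7.35% were lower and 4.46% higher, and of the 1624 in the second 9.42% and 10.6%. Over all probes, most of which are read from 1 spot, the shares were 9.15% and 9.38%. Catalogue probes printed once are also read from 1 spot, which by itself gives more calls, so their shares are not like for like. By name these were 7.48% to 7.73% lower and 7.47% to 10.2% higher for A_19, A_21 and A_22. For A_23, A_24, A_32 and A_33 printed once they were 10.003% to 13.1% lower and 9.896% to 13.2% higher. Of the 4 falls past 4-fold, 3 belong to the smaller set (A_22_P00013558, A_22_P00002440 and A_21_P0009662). The last of these and A_22_P00002440 hold C and A runs. Of the 8 rises past 4-fold, 2 belong to the smaller set and 6 to the larger. Falls past 2-fold numbered 7 in the smaller set and 28 in the larger. The sets of names differ in signal, and its part in these shares was not tested.

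Signal differed with base composition. Among the 1060 probes with the fewest G and C bases, up to 38.3%, the median NC level was 21.0 and 54.9% were detected on both arrays. Among the 706 with the most, from 46.7%, the values were 108 and 86.7%, and 1234 probes lay between. The shares lower past 1.4-fold were 13.2%, 7.03% and 7.68% from the fewest to the most, and the shares higher 11.2%, 9.37% and 7.84%. Over all probes of the same composition the shares were 13.4%, 8.25% and 7.995% lower and 10.6%, 9.16% and 8.95% higher, mostly from 1 spot. The polyadenylation signal AATAAA, which marks the ends of many messenger RNAs, was searched on the listed strand. It occurs in 8.17% of the 3000 probes, 7.18% of the 2005 detected on both arrays, 7.20% of catalogue probes printed once and 3.26% of custom probes printed 10 times. Among the probes apart past 1.4-fold it occurs in 17 of 166 lower (10.2%) and 10 of 170 higher (5.88%), which are small counts. The part of base composition in these shares was not tested.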

How the data were processed

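The arrays of NC and siFOXA1 were read from the scanner output. Its processed intensity per spot, deposited by the authors, had been corrected for background and detrended by Feature Extraction (10.7.1.1). A deposited matrix of log2 values served as an alternative. Spots marked non-uniform, or outlying among the copies of their probe, were dropped, 1058 of the 30000 on NC (3.53%) and 994 on siFOXA1 (3.31%), which trims the spread between spots. At least 6 spots of each probe remained, and 1722 probes kept 10 on both arrays. The log2 processed signal minus the array's 75th percentile over all spots that are not controls (105.8 on NC, 91.7 on siFOXA1) was averaged over a probe's spots. Calls used probes detected on both arrays.

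No test was run. Named probes were the 10 largest falls and rises among 84 and 90 that were well above background in every kept spot, apart, and past 1.4-fold also under quantile normalization and normexp, the 5 brightest, and those with the widest and tightest spots. The members, lists and searches were chosen with earlier results of these data known, and the runs and the other single probes after their values were seen. Genes were to be named through transcripts or proteins. That was not done, and the promoter windows (35116, at least 30 matching bases) replaced it, so gene lists, liver markers and FOXA1 itself were not analysed here. Sequences are RefSeq GRCh38.p14 matches of the probes. Alternatives were other scalings, background corrections, filters, thresholds, spot subsets and the deposited matrix. Scripts were tested on simulated data. The tools were R 4.3.3 with limma 3.58.1 and Python 3.11.15 with pandas 2.3.3, numpy 2.4.6 and scipy 1.17.1.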

Additional observations from a re-analysis of the deposited data

How the results depend on the processing

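Across the alternatives chosen at the outset, 68 values stayed within 1.5 times or within the spread of the main ones and 23 moved. Without scaling there were 368 lower and 118 higher probes, 332 and 104 of them apart, and the median difference was −0.22, so that 75.7% of calls were lower in place of 48.9%. The normexp correction, with its offset of 50, gave 100 lower and 91 higher, all apart, and 3.86% of spot pairs with another call. An added offset narrows log differences, most of all for dim probes. How much of the change it accounts for was not tested. With no filter on dim probes 292 were higher, the median difference was 0.0436 and 16.3% of spot pairs gave another call. A threshold of 1.2-fold gave 400 lower and 360 higher, 307 and 266 of them apart. A threshold of 2-fold gave 35 and 59, all apart, and 2.10% of spot pairs. Partners that share at least 40 bases correlated at 0.94 over 21 pairs. Scaling by 7 spike-in probes, an alternative added after seeing the data, left 1602 lower and 39 higher, 1438 and 38 of them apart, a median of −0.73 and 97.6% of calls lower. Spike-in signal was higher on siFOXA1 by a median of 0.50 on the log2 scale, with probes from −0.32 to 0.66, and the cause was not tested. Directions are therefore relative to the scaling. At 1.4-fold, 43.8% to 54.5% of calls were lower under the other scalings, normexp, the other choices of spots and the deposited matrix. This range leaves out the other filters and thresholds. Alternatives for gene lists were not run. No paired analysis was possible because the labels give only 1 array of each kind. A call rests on 1 culture per condition, and below a level of about 33.0 the spots separate few probes.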
